A study of Mus musculus with 6 samples.

Results

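A listed set of 40 genes was followed, which take amino acids into the cell, make them, report their shortage through the transcription factor ATF4, or pass their supply to the kinase complex mTORC1. They were chosen by name from the 27179 genes of the count table, and every member was found. Of these, 39 passed the limit on low values and were tested. Nupr1, a small stress-responsive chromatin protein, had 0 counts in all 6 libraries, which allows a level of up to 0.109 to 0.14 CPM (counts scaled to the library size) by a floor of 3 counts per library, for counting error only.

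The libraries came from germinal center (GC) B cells of the spleen, the B cells that divide, mutate their antibody genes and compete for T cell help after immunization. Mice of both genotypes, WT and without the IL-21 receptor (Il21r-/-), were on the C57BL/6 background and had received the hapten-protein conjugate NP-KLH in alum, and NP-binding IgG1+ cells lacking CD138, IgM, IgD, Gr1 and CD38 were sorted on days 7, 10 and 14. There was 1 library for each genotype and day, so that each genotype had 3 libraries, which differ in day. The methods say that experiments other than a nucleotide-labelling time course used irradiated Ly5.1 hosts rebuilt with WT or Il21r-/- bone marrow, so that in such mice the receptor is lacking in cells of the donor marrow and not in host cells that outlive irradiation. The labels do not mention hosts, and the mice for RNA-seq came from 2 immunizations that are not told apart in the libraries. The study used mice of both sexes, matched for age and sex, and the ages and sexes behind each library were not given. The series states that every library came from a separate mouse, whereas the methods name more mice than libraries and the supplement speaks of 3 mice of each genotype for day 7, so it is not settled how many mice stand behind a library, and the p-values measure the spread between these 6 libraries.

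Amino acid shortage or protein folding stress leads kinases to phosphorylate the translation factor eIF2alpha, and translation of most mRNAs then falls while that of the Atf4 mRNA rises. ATF4, paired with partners such as C/EBP-gamma, switches on transporters, synthesis enzymes, tRNA synthetases and several brakes on growth. Plentiful amino acids act the other way: through the Rag GTPases they bring mTORC1 to the lysosome, where RHEB activates it unless the TSC complex or the sestrins hold it back. In the GC, mTORC1 activity is known to rise with T cell help in the light zone, ahead of growth and division in the dark zone.

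The ATF4 response can be read partly from DNA. The C/EBP-ATF response element, for which ATF4 and its C/EBP partners are known, was searched for as TGATGNAA on both strands (TTNCATCA in the reverse sense) in RefSeq windows of build GRCm38.p6 that run from 250 bases before to 50 bases after each gene's start. Of the 35 members with such a window, 8 held a match (22.9%), against 1219 of all 27025 genes with a window (4.51%), 245 of the 8529 tested genes (2.87%) and 1304 of all 32851 windows (3.97%). The 8 were Chac1, Trib3, Slc7a11, Asns, Nupr1, Slc1a4, Pycr1 and Got1, and Slc7a11 held 2 matches. A match is a description of letters, not of a site in use, and several of these genes are textbook examples of ATF4 targets. All matches that lie before the start are shown 5′ to 3′ on the strand of the gene, with the element in capitals, because these members are followed below by level, genotype and day.
Chac1, chr2:119351029-119351076, plus strand: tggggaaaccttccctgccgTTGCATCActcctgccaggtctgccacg
Slc7a11, first match, chr3:50443652-50443699, minus strand: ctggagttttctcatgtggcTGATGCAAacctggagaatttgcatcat
Slc7a11, second match, chr3:50443633-50443680, minus strand: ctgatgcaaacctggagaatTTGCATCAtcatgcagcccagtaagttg
Asns, chr6:7693210-7693252, minus strand: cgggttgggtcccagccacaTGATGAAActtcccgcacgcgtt
Nupr1, chr7:126625553-126625600, minus strand: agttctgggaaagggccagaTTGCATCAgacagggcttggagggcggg
Pycr1, chr11:120643824-120643871, minus strand: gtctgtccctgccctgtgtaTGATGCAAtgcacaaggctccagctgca
Got1, chr19:43524680-43524727, minus strand: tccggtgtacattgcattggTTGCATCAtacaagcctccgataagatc

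In Asns the element ends 16 bases before the start, and in Chac1 it ends 186 bases before it. Despite the shared letters these genes lay far apart in level: per length, Asns had 13.4 to 35.1 RPKM over the 6 libraries, Got1 11.9 to 15.0, Chac1 0.648 to 1.43 and Pycr1 0.18 to 0.546, while Slc7a11 reached no more than 0.147 and Nupr1 had no counts. RPKM here is the CPM divided by the summed exon length in kilobases, and comparisons of level between genes are made on that scale only.

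Total counts were 21353438 to 27435124 per library. Il21r had 346, 263 and 247 CPM in WT on days 7, 10 and 14 and 106, 128 and 113 CPM in Il21r-/-, a difference of 1.29 log2 units (adjusted p = 0.00137), so the libraries follow their labels although reads remain on the gene. The GC label was checked on 12 markers, all above the limit on low values, among them Bcl6, the master repressor of GC B cells, at 145 to 239 CPM and S1pr2, a receptor that keeps them in the follicle, at 443 to 621 CPM. Their sum was 7160 to 8160 CPM in WT and 7820 to 9040 CPM in Il21r-/-, with 1 of 12 higher in Il21r-/-, and with each day fitted as its own level 3 higher in WT and 5 in Il21r-/-. The libraries of the genotypes differed in zone markers. Summed light zone markers were 1470 to 2010 CPM in WT and 2880 to 3090 CPM in Il21r-/-, with 8 of 17 higher in Il21r-/- (10 with each day fitted as its own level), and summed dark zone markers were 3810 to 4590 and 3530 to 3810 CPM, with 0 of 15 called by edgeR's quasi-likelihood test, although 7 had an unadjusted p under 0.05 and 8 were higher in WT when each day was fitted as its own level. Markers of naive and memory B cells summed to 1010 to 1960 CPM in WT and 1720 to 2360 in Il21r-/-, with 5 of 11 higher in Il21r-/- (6 by the fit with days as levels) and 1 higher in WT. In plasma cell markers the sums were 4050 to 4490 and 4310 to 5540 CPM, with 2 of 7 tested genes higher in WT and 1 in Il21r-/-, or 2 and 4 with each day fitted as its own level. T cell markers summed to 88.2 to 123 and 85.4 to 119 CPM, of which Lck alone gave 80.8 to 121, and Cd3e reached at most 0.0937 CPM in any library. Myeloid markers summed to 11.0 to 17.1 and 15.8 to 23.5 CPM, with 1 of 5 tested genes (Cd68) higher in Il21r-/- (2 by the fit with days as levels) and Mpo at 0 throughout. Of all genes tested, 4.52% were called as higher in Il21r-/- and 1.40% as higher in WT. With each day fitted as its own level these shares were 13.6% and 9.33%. An unadjusted p under 0.05 without that fit was found in 2356 of the 11005 genes tested. Zone and memory markers thus move with genotype beside every genotype difference below, and their part in those differences was not tested. In bulk libraries, fewer cells of a type and less RNA per cell cannot be told apart.

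The first comparison asked which members differ between WT and Il21r-/- GC B cells over the 3 days. Unless another test is named, p-values come from edgeR's quasi-likelihood test of genotype with a linear term for day, adjusted by the Benjamini-Hochberg method over all 11005 genes tested, and a gene passed at an adjusted p under 0.05. Positive log2 values mean higher in WT. Only 3 members passed, Sesn1, Sesn2 and Ddit4, all brakes on mTORC1 and all higher in Il21r-/-, 1.65-fold, 1.91-fold and 2.01-fold. Sesn3, listed in the same role, did not pass, and neither did Tsc1 and Tsc2 of the TSC complex. The 3 that passed were 7.69% of the 39 tested members, where 5.92% of all genes tested passed in either direction and 4.52% passed as higher in Il21r-/-. The median log2 difference was 0.01 over the 39 members and -0.01 over all genes tested, and 20 members lay on the side of WT and 19 on the side of Il21r-/-.

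When each day was fitted as its own level, so that the 2 libraries of a day were compared with each other, 8 of 39 members passed. The background was far larger too, with 22.9% of all genes passing, 13.6% as higher in Il21r-/- and 9.33% as higher in WT. Of the 8, 7 were higher in Il21r-/-: Sesn1, Sesn2, Ddit4, Ddit3, Atf5, Trib3 and Slc1a4. The eighth, Slc43a1, was higher in WT. In 6 members all 3 Il21r-/- libraries lay above all 3 WT libraries, namely Sesn1, Sesn2, Ddit4, Ddit3, Trib3 and Slc1a4, as they did for 10.0% of all genes tested. In 2 members, Slc7a6 and Slc7a11, all WT libraries lay above all Il21r-/- libraries, against 8.33% of genes tested.

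**Figure D1:**
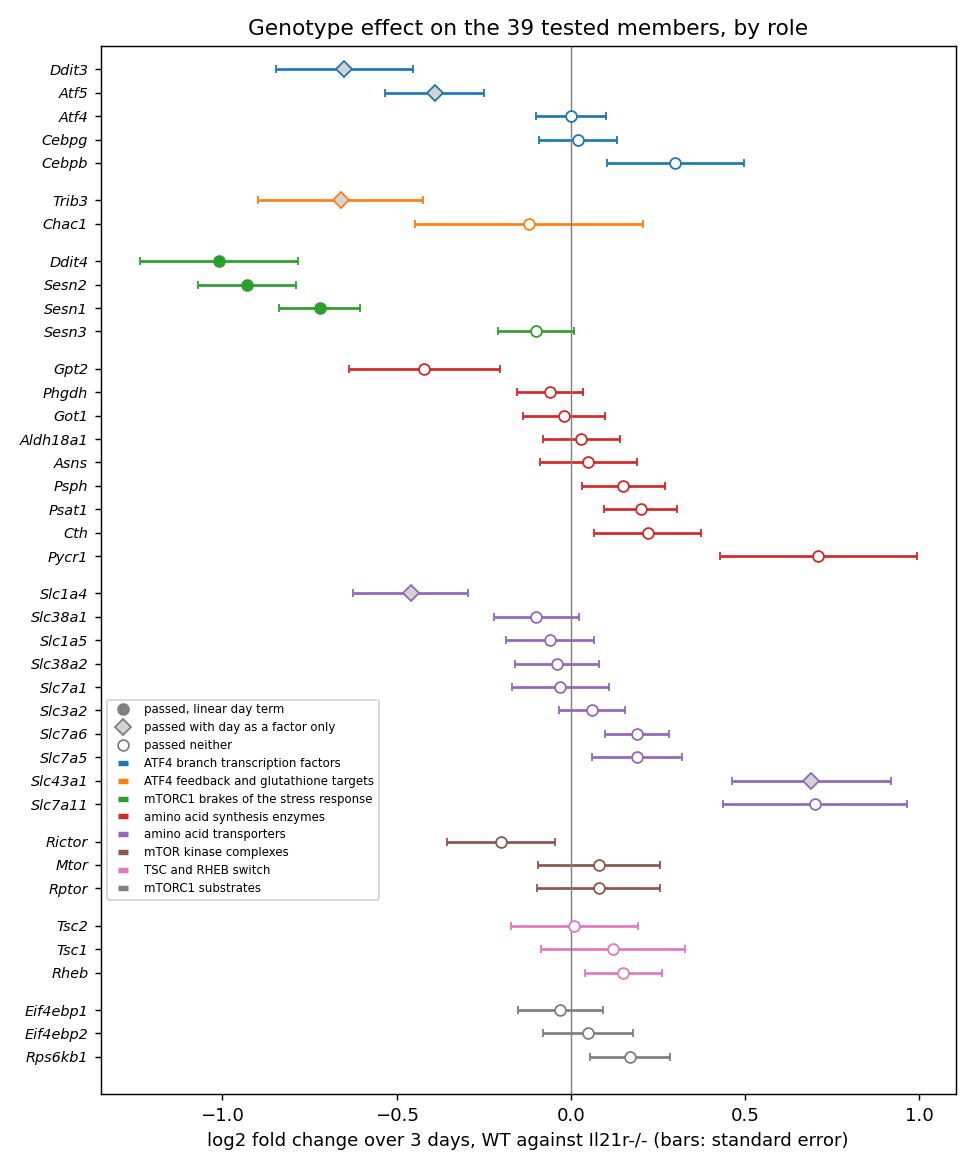
The log2 fold change over the 3 days (x axis, positive values higher in WT) is plotted for the 39 tested members grouped by role, with bars of 1 standard error; filled circles passed the test with a linear day term, diamonds passed only with day as a factor and open circles passed neither. The filled circles are Ddit4 at -1.01, Sesn2 at -0.93 and Sesn1 at -0.72, all among the mTORC1 brakes.

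Sestrins are stress-inducible proteins that bind the GATOR2 complex and so hold mTORC1 off the lysosome, and Sestrin2 is also a leucine sensor. Sesn1 (Entrez 140742, chr10:41810574-41908436) had 29.1, 27.3 and 31.2 CPM in WT on days 7, 10 and 14, and 52.1, 43.8 and 48.5 CPM in Il21r-/-. The lowest Il21r-/- library thus lay above the highest WT library, and the means were 29.2 ± 1.96 and 48.1 ± 4.20 CPM (SD, n = 3 libraries). The log2 difference was -0.72 ± 0.116 (SE; adjusted p = 0.00974). Sesn2 (Entrez 230784, chr4:132492804-132510456) was lower per length, at 2.18 to 4.96 RPKM against 8.18 to 15.6 for Sesn1. It had 6.96, 6.5 and 5.81 CPM in WT and 11.8, 13.2 and 11.7 CPM in Il21r-/-. Again the groups did not overlap, and the difference was -0.93 ± 0.14 log2 units (adjusted p = 0.00705). Sesn3, the third paralog, had 59.9, 52.2 and 52.1 CPM in WT and 55.9, 64.5 and 55.7 CPM in Il21r-/-. Those values overlap, and its difference of -0.10 log2 units, with a 95% interval of -0.35 to 0.14, did not pass (adjusted p = 0.641).

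The make-up of the sestrin pool followed from these values. Per length, Sesn3 supplied 67.7 to 71.0% of the sestrin RPKM in WT and 56.4 to 62.3% in Il21r-/-, where Sesn1 supplied 27.3 to 34.0% against 22.3 to 26.2% and Sesn2 9.67 to 10.3% against 6.12 to 7.03%. The sum of the 3 genes was 34.8 to 39.1 RPKM in WT and 44.7 to 47.9 RPKM in Il21r-/-. Sesn3 was the most abundant sestrin in all 6 libraries.

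Ddit4 (REDD1; Entrez 74747, chr10:59949675-59951770) encodes an inducible inhibitor that acts through the TSC complex. It had 50.7, 26.5 and 38.6 CPM in WT and 76.9, 63.6 and 92.1 CPM in Il21r-/-, the widest spread of the 3 brakes that passed. Day by day both genotypes were lowest on day 10, and no WT library reached the lowest Il21r-/- value. The difference was -1.01 ± 0.227 log2 units (adjusted p = 0.0391), and -1.03 ± 0.12 (adjusted p = 3.54e-05) with day as a factor, where Sesn1 had an adjusted p of 1.49e-06 and Sesn2 of 8.26e-06. The call for Ddit4 was lost without either library of day 10 or day 14 or without the day 7 library of Il21r-/-, with adjusted p-values of 0.0518 to 0.227, and when all genes with any count were tested (0.14). Without the WT library of day 14 none of the 3 brakes passed (Sesn1 0.0685, Sesn2 0.0948, Ddit4 0.227), and Sesn1 was also lost without the WT library of day 7 (0.0543) or the Il21r-/- library of day 14 (0.0539). With day as a factor all 3 passed without day 7, without day 10 and without day 14.

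**Figure D2:**
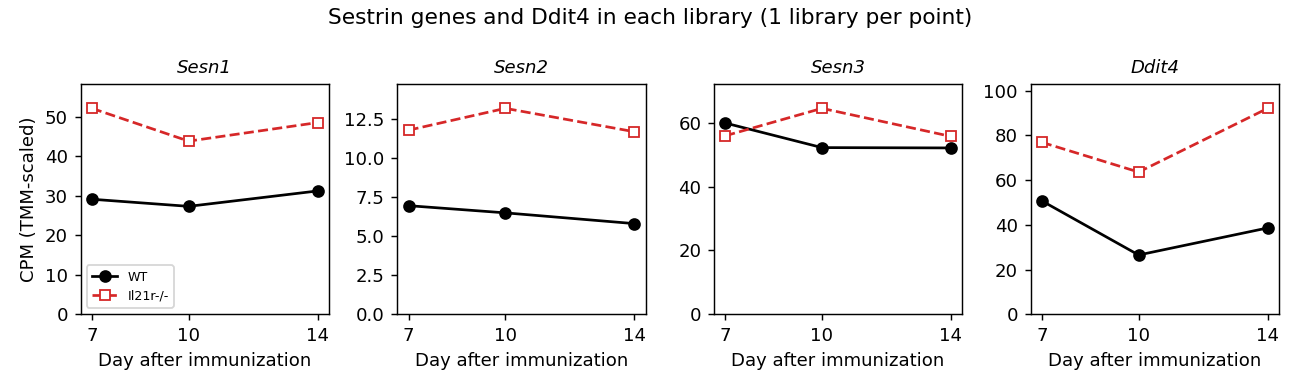
CPM (y axis, from 0) of Sesn1, Sesn2, Sesn3 and Ddit4 is plotted against day after immunization, with 1 library per point, WT as black circles and Il21r-/- as red squares. The Il21r-/- points lie above all WT points for Sesn1, Sesn2 and Ddit4, while the lines of Sesn3 cross.

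Single days were compared by a likelihood ratio test that takes its spread from all 6 libraries. On day 7 Sesn1 alone passed among members (-0.84 ± 0.235 log2 units, adjusted p = 0.0369), where 1.07% of genes passed. On day 10 it was Sesn2 (-1.02 ± 0.286, adjusted p = 0.0166), against 3.10% of genes, and on day 14 Sesn2 again (-1.01 ± 0.294, adjusted p = 0.0241), against 3.28% of genes. Ddit4 was 1.52-fold, 2.39-fold and 2.39-fold higher in Il21r-/- on the 3 days, with adjusted p-values of 0.999, 0.0706 and 0.0688. With the spread estimated from a fit that pairs the libraries of a day, Sesn1 alone still passed on day 7, among 303 genes in all, and Sesn1, Sesn2 and Ddit4 all passed on days 10 and 14, among 822 and 1055 genes. The call on day 7 was lost without the WT library of day 10 or 14 or the Il21r-/- library of day 14 (adjusted p = 0.0775 to 0.141), that on day 10 without the WT library of day 14 (0.0684) and that on day 14 without the WT library of day 10 (0.0749). The day 7 call was also lost with all genes with any count (0.0846) or at least 10 counts in every library (0.0586). The day 14 call was also lost with all genes with any count (0.0521). Whether genotype changed the slope over days was asked with an interaction term in edgeR's quasi-likelihood test: 0% of genes and 0 members passed, and the lowest unadjusted p of a member was 0.124, so 0 members had an unadjusted p under 0.05. No other tool was run for that term.

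The search for the C/EBP-ATF element found no match in the windows of Sesn1 (2 starts), Sesn2 and Ddit4, which says only that these letters are not there. Since these are the 3 members that passed for genotype with a linear day term, the 60 bases before their starts are given, with no part in capitals.
Sesn1, first start, chr10:41810514-41810573, plus strand: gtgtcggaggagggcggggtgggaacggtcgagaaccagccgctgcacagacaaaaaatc
Sesn1, second start, chr10:41887379-41887438, plus strand: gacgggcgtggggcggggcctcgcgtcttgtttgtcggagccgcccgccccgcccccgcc
Sesn2, chr4:132510457-132510516, minus strand: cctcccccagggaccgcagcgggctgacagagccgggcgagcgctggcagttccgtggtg
Ddit4, chr10:59951771-59951830, minus strand: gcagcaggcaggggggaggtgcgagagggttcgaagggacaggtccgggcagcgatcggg

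All 4 starts are rich in G and C, at 63.2 to 71.2% of the 250 bases before the start.

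The transcription factors of the ATF4 branch did not move as a block. Atf4 itself showed no difference beyond its error, at 102, 100 and 114 CPM in WT and 106, 95.4 and 115 CPM in Il21r-/-. Its log2 difference of 0.00 had a 95% interval of -0.23 to 0.23 (adjusted p = 0.996), and at 55.3 to 67.0 RPKM it was the most abundant of the 6 factors per length. ATF4 protein is set largely by translation, which read counts do not show. Cebpg, the partner of ATF4, had 71.7, 65.6 and 87.6 CPM in WT and 67.7, 67.7 and 86.2 CPM in Il21r-/- (log2 difference 0.02, adjusted p = 0.93). Cebpb, a further C/EBP factor, lay at 4.07 to 5.43 CPM in WT and 2.97 to 4.26 CPM in Il21r-/- (0.30, adjusted p = 0.422).

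Ddit3 and Atf5 are transcription factors downstream of ATF4, and Ddit3 (CHOP) is best known for its part in stress-induced cell death. Ddit3 had 4.91, 3.86 and 5.76 CPM in WT and 7.72, 6.25 and 8.83 CPM in Il21r-/-, with no overlap. The difference of -0.65 ± 0.196 log2 units did not pass the quasi-likelihood test with a linear day term (adjusted p = 0.0969). It passed edgeR's likelihood ratio test with the same term (adjusted p = 0.03) and, once day was a factor, the quasi-likelihood test too (-0.65 ± 0.16, adjusted p = 0.00296). Atf5 had 9.38, 11.7 and 10.8 CPM in WT and 11.5, 13.8 and 16.9 CPM in Il21r-/-, and the groups overlap although the Il21r-/- library was the higher on each day. It passed only with day as a factor (-0.40 ± 0.129, adjusted p = 0.0244, against 0.158). As a share of Atf4 RPKM, Ddit3 was 7.62 to 10.0% in WT and 13.0 to 15.1% in Il21r-/-. Both genes span positions shared with other counted genes, Ddit3 with Mbd6 and Mars1 and Atf5 with Nup62 and Il4i1b, and how reads in the overlaps were assigned is not given in the sources used here.

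Trib3, a pseudokinase that ATF4 induces and that feeds back on it, followed the same side. Its values were 3.66, 2.2 and 2.25 CPM in WT and 3.97, 4.11 and 4.62 CPM in Il21r-/-, so that the genotypes were close on day 7 and apart later. It passed with day as a factor (-0.66 ± 0.214, adjusted p = 0.0228) and not with a linear day term (adjusted p = 0.156). Chac1, which breaks down glutathione, rested on 25 to 56 counts per library and overlapped between genotypes (-0.12 ± 0.328, adjusted p = 0.871). Of Ddit3, Atf5 and Trib3, Trib3 alone held the element in its window, after the start. With a day left out of the fit by day, Atf5 lost its call each time (adjusted p = 0.0518 to 0.374), Trib3 lost it without day 10 (0.187) or day 14 (0.298), and Ddit3 lost it without day 14 (0.0521).

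**Figure D3:**
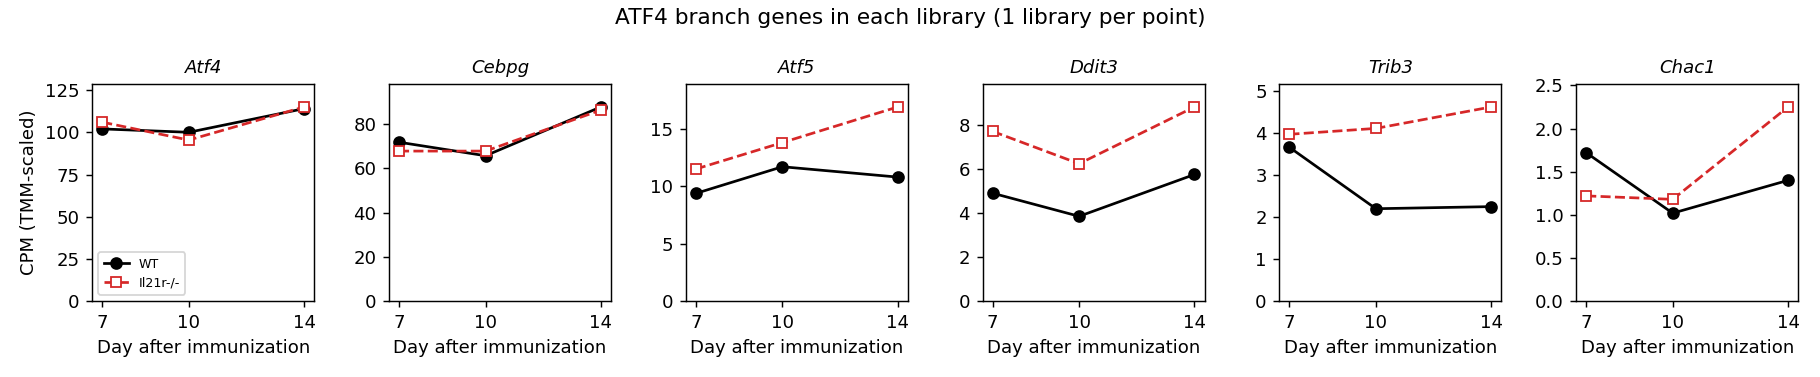
CPM (y axis, from 0) of Atf4, Cebpg, Atf5, Ddit3, Trib3 and Chac1 is plotted against day, with 1 library per point, WT as black circles and Il21r-/- as red squares. The lines of Atf4 and Cebpg nearly coincide, those of Ddit3 run apart at all 3 days and those of Trib3 part after day 7, when WT had 3.66 and Il21r-/- 3.97 CPM.

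Among the 9 amino acid synthesis enzymes, 0 passed for genotype by edgeR's quasi-likelihood test with either day term. Of all genes 5.92% did with the linear term and 22.9% with day as a factor. Of the enzymes 1 (Pycr1) had an unadjusted p under 0.05 with the linear term, as did 2356 of all 11005 genes tested. The calls of the enzymes came with time. Over days, tested by edgeR's quasi-likelihood test as a linear slope common to both genotypes, Asns, Phgdh and Cth rose, and 0 members passed as falling, although 1, Slc1a5, did so by other tests described with the transporters. These 3 of 39 members compare with 4.43% of all genes that passed in either direction and 1.07% that rose.

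Asns makes asparagine from aspartate and glutamine (Entrez 27053, chr6:7675165-7693209). It had 27.6, 50.8 and 61.1 CPM in WT on days 7, 10 and 14, and 25.9, 44.2 and 67.7 CPM in Il21r-/-. Both genotypes rose at each step, by 0.18 ± 0.024 log2 units per day, which is 2.36-fold over the 7 days (adjusted p = 0.0119). Phgdh, the first enzyme of serine synthesis (Entrez 236539, chr3:98313171-98339969), rose from 110 to 139 and 167 CPM in WT and from 119 to 129 and 186 CPM in Il21r-/-. Its slope was 0.09 ± 0.017 log2 units per day, or 1.54-fold over 7 days (adjusted p = 0.0234). Cth makes cysteine from cystathionine (Entrez 107869, chr3:157894248-157925081) and had 6.12, 10.2 and 11.9 CPM in WT and 5.76, 7.62 and 10.9 CPM in Il21r-/-. It rose by 0.13 ± 0.027 log2 units per day, or 1.89-fold (adjusted p = 0.0335). Without either library of day 7, or without the WT library of day 14, 0 members passed, while 0 to 36 genes passed in all, and without the Il21r-/- library of day 14 Asns alone did, among 142 genes. The slopes themselves stayed at 0.16 to 0.21 log2 units per day for Asns, 0.08 to 0.10 for Phgdh and 0.11 to 0.15 for Cth in these 4 fits. The genotype difference of Asns was 0.05 ± 0.14 log2 units, that of Phgdh -0.06 ± 0.095 and that of Cth 0.22 ± 0.153.

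Psat1, which follows Phgdh in serine synthesis, was the most abundant member per length, at 165 to 255 RPKM. It had 452, 539 and 634 CPM in WT and 421, 411 and 584 CPM in Il21r-/-, higher in WT on each day. Neither its slope of 0.07 ± 0.018 log2 units per day (adjusted p = 0.065) nor its genotype difference of 0.20 ± 0.105 (adjusted p = 0.317, and 0.0505 with day as a factor) passed. Its slope passed by the likelihood ratio test (0.0107), by the DESeq2 Wald test (0.0154) and when all genes with any count were tested (0.042). The ratio of Psat1 to Phgdh RPKM was 2.85 to 3.08 in WT and 2.36 to 2.65 in Il21r-/-. Psph, the last enzyme of the pathway, had 58.7, 50.2 and 70.3 CPM in Il21r-/- and 63.1, 63.9 and 71.5 CPM in WT (log2 difference 0.15, adjusted p = 0.512), and its span overlaps Cct6a.

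The other 4 enzymes had no call by the quasi-likelihood test. Aldh18a1, which starts proline synthesis, ranged from 77.8 to 93.4 CPM (log2 difference 0.03 ± 0.111), and Got1, an aspartate aminotransferase, from 24.5 to 30.8 CPM (-0.02 ± 0.118). Gpt2, the mitochondrial alanine aminotransferase, had 1.36, 1.59 and 2.11 CPM in WT and 1.61, 1.98 and 3.33 CPM in Il21r-/- (slope adjusted p = 0.0959, and 0.0373 by the likelihood ratio test). Pycr1, which completes proline synthesis, had 12 to 34 counts per library, and its genotype difference of 0.71 ± 0.282 log2 units did not pass (adjusted p = 0.188).

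**Figure D4:**
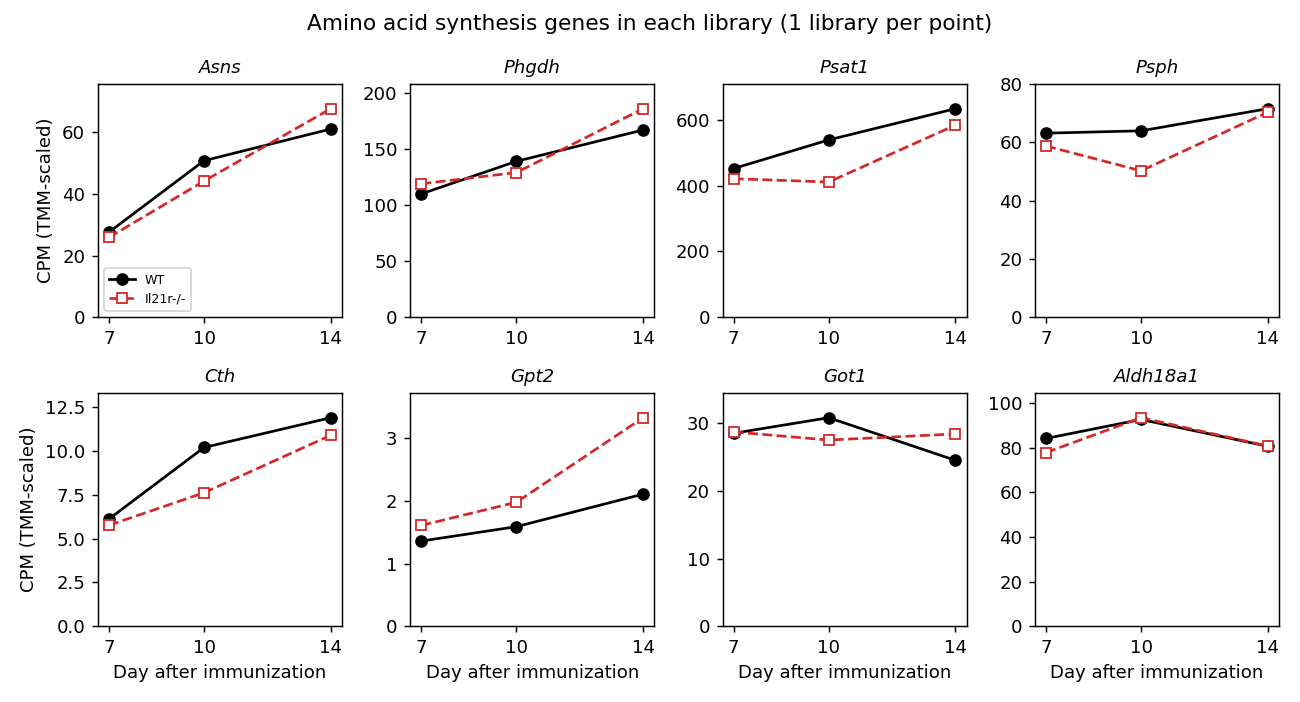
CPM (y axis, from 0) of 8 amino acid synthesis genes is plotted against day, with 1 library per point, WT as black circles and Il21r-/- as red squares. Asns, Phgdh and Cth climb from day 7 to day 14 in both genotypes, Asns from 27.6 to 61.1 CPM in WT, whereas Got1 and Aldh18a1 stay level.

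Of the 10 amino acid transporters, 0 passed for genotype with a linear day term by edgeR's quasi-likelihood test, 3 had an unadjusted p under 0.05, and 2 passed with day as a factor, in opposite directions, where 22.9% of all genes did. With the linear term, an unadjusted p under 0.05 was found in 2356 of all 11005 genes tested. Slc1a4 (ASCT1) exchanges small neutral amino acids and had 4.4, 5.41 and 5.06 CPM in WT and 5.5, 7.16 and 7.87 CPM in Il21r-/-. Its lowest Il21r-/- library was only just above its highest WT library (-0.46 ± 0.164 log2 units, adjusted p = 0.0428 with day as a factor and 0.16 without), and it lost the call with any day left out (0.0527 to 0.352). Slc43a1 (LAT3), a facilitator of branched-chain amino acids, had 4.14, 3.78 and 2.25 CPM in WT and 2.05, 2.48 and 1.65 CPM in Il21r-/-. It was higher in WT on each day, with overlap between days (0.70 ± 0.224, adjusted p = 0.0212 with day as a factor and 0.125 without), and lost the call with any day left out (0.061 to 0.157).

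In 2 transporters WT lay wholly above Il21r-/- without passing either test. Slc7a6, a light chain for cationic and neutral amino acids, had 74.1, 71.4 and 74.6 CPM in WT and 61.4, 64.8 and 67.0 CPM in Il21r-/- (0.19 ± 0.092 log2 units, adjusted p = 0.284). Slc7a11, the cystine importer, had 1.17, 1.3 and 1.36 CPM in WT and 0.873, 0.8 and 0.682 CPM in Il21r-/- (0.70 ± 0.264, adjusted p = 0.17), from only 17 to 32 counts per library.

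None of the other 6 transporters, all abundant, passed the quasi-likelihood test for genotype or day on all 6 libraries. Slc1a5 (ASCT2), the glutamine carrier, led per length with 30.6 to 53.1 RPKM. It had 147, 141 and 84.3 CPM in WT and 139, 140 and 103 CPM in Il21r-/-, level to day 10 and low on day 14 (slope -0.09 ± 0.022 log2 units per day, adjusted p = 0.0616). That slope passed by the DESeq2 Wald test (0.00705), by the likelihood ratio test (0.00785) and when all genes with any count were tested (0.0158). Slc3a2 (CD98), the heavy chain of several carriers, ranged from 91.6 to 106 CPM, and its leucine-carrying partner Slc7a5 (LAT1) from 66.4 to 98.5 CPM. Their genotype differences were 0.06 log2 units, with a 95% interval of -0.16 to 0.27, and 0.19, with an interval of -0.11 to 0.48. Slc7a1, the cationic amino acid carrier, differed by -0.03 ± 0.14 log2 units, and the glutamine carriers Slc38a1 and Slc38a2 by -0.10 ± 0.122 and -0.04 ± 0.121.

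The core of the mTOR pathway gave no call for genotype on all 6 libraries by edgeR's quasi-likelihood test. With the linear day term 0 of 9 members passed, against 5.92% of all genes, and with day as a factor 0, against 22.9%. None had an unadjusted p under 0.05 with the linear term, against 2356 of all 11005 genes tested. All 9 overlapped between genotypes, where 10.0% of all genes tested had Il21r-/- wholly above and 8.33% had WT wholly above. Mtor, the kinase, ranged from 16.8 to 24.0 CPM, Rptor, its mTORC1 scaffold, from 16.2 to 23.7, and Rictor, the mTORC2 scaffold, from 13.9 to 23.3. Their differences were 0.08 ± 0.175, 0.08 ± 0.176 and -0.20 ± 0.155 log2 units. Rheb, the GTPase that activates mTORC1, was the most abundant of the 9 per length, at 54.2 to 74.2 RPKM. It had 103, 99.6 and 113 CPM in WT and 95.5, 82.4 and 107 CPM in Il21r-/- (0.15 ± 0.11). Tsc1 and Tsc2, which form the complex that turns RHEB off, differed by 0.12 ± 0.206 and 0.01 ± 0.183.

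Of the substrates, Eif4ebp2 and Eif4ebp1 are repressors of cap-dependent translation and Rps6kb1 is the S6 kinase. Eif4ebp2 was the more abundant repressor, at 55.9 to 69.6% of the RPKM of the pair in the 6 libraries. It had 130, 122 and 101 CPM in WT and 111, 137 and 91.7 CPM in Il21r-/- (0.05 ± 0.129 log2 units). Eif4ebp1 differed by -0.03 ± 0.122 and Rps6kb1 by 0.17 ± 0.114. Phosphorylation, through which mTORC1 acts on all 3, is not measured by RNA. Mtor, Rptor, Tsc2 and Rps6kb1 each overlap another counted gene (Angptl7, Rptoros, Pkd1 and Rnft1).

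**Figure D5:**
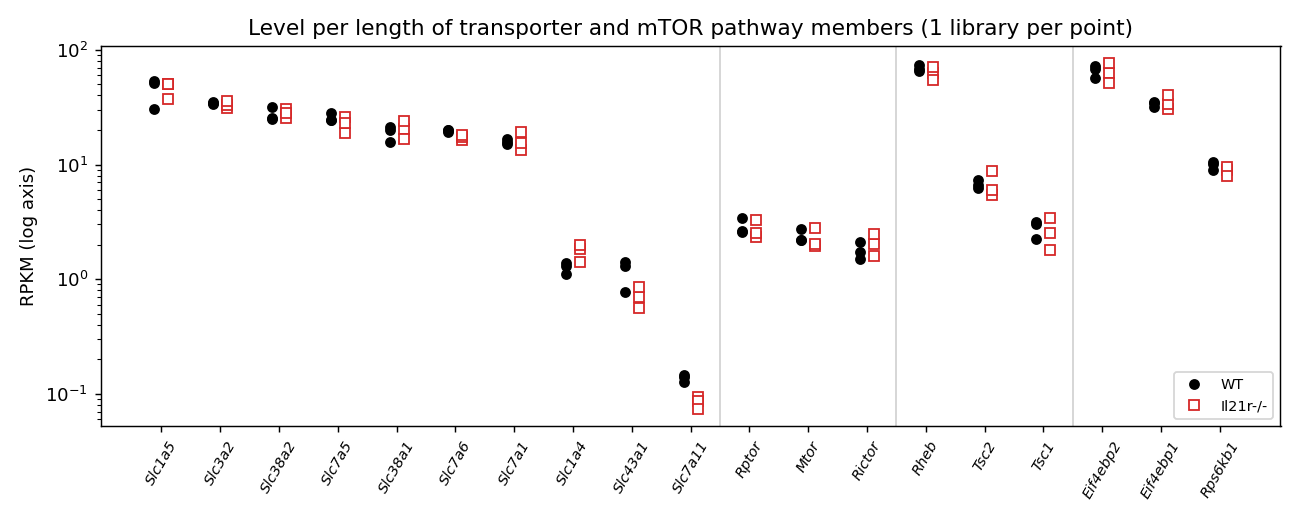
RPKM on a log axis is plotted for the 10 transporters and the 9 mTOR pathway members, ordered by mean level within each role, with 1 library per point, WT as black circles and Il21r-/- as red squares. Slc1a5 leads the transporters with up to 53.1 RPKM and Slc7a11 is last with no more than 0.147, and all 9 mTOR pathway members overlap between genotypes.

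The day 10 library of Il21r-/- bore on several of these values. For Slc38a1, Slc38a2, Slc7a1, Rictor, Tsc1 and Tsc2 it gave the highest Il21r-/- value, such as 201 CPM of Slc38a1 against 171 and 139 on the other days. In WT too day 10 was highest for Slc7a1 (119 CPM) and Tsc2 (45.5 CPM), though not for the others of these. Mtor, Rptor and Slc7a5 were highest on day 10 in both genotypes. Without the day 10 library of Il21r-/- 6 of 39 members passed for genotype, where 19.7% of all genes did: Sesn1, Sesn2 and Ddit3 as higher in Il21r-/-, and Slc7a5 (0.31, adjusted p = 0.049), Tsc1 (0.40, adjusted p = 0.0432) and Slc43a1 (0.84, adjusted p = 0.0326) as higher in WT. Likewise 10 of 39 members then passed for a slope over days, where 19.8% of all genes did, with Psat1, Cebpg and Tsc1 joining the 3 that rose and Slc1a5, Slc38a1, Eif4ebp2 and Rictor falling.

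Around the 40 members, 142 further genes of the same pathways were listed, of which 111 passed the limit on low values. Of these, 6 passed for genotype: Jdp2, Atf3 and Bcl2l11 were higher in WT, and Pdcd4, Ulk1 and Slc15a3 were higher in Il21r-/-. These 6 of 111 lie near the 5.92% of all genes that passed. With day as a factor 13 were higher in WT and 10 in Il21r-/-, 23 of 111 in all, again near the 22.9% of all genes. Both counts include Atf3, which was tested because of its WT level. The list medians lay between -0.08 and 0.08 log2 units, against -0.01 for all genes tested, except for the further transporters, at -0.28 log2 units over 13 tested genes, and the tRNA synthetases, at 0.13 over 20.

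Among 18 tested further ATF4 targets 3 passed, all higher in WT, as did 1.40% of all genes tested. Of the 3, Atf3 passed the limit on low values through its WT libraries, so the count cannot be read against that share. With day as a factor 8 passed, 6 higher in WT, which adds the one-carbon enzymes Shmt2 and Mthfd2 and the transaminase Bcat1, and 2 higher in Il21r-/-, Gpt and Ndrg1, where 9.33% and 13.6% of all genes did. Atf3, a stress-induced transcription factor, had 0.916, 1.26 and 2.25 CPM in WT and 0.48, 0.457 and 0.281 CPM in Il21r-/-. All its Il21r-/- values lie under the limit on low values, so the gene was tested because of its WT level. Its call is therefore a description only (3.45-fold higher in WT, 1.79 ± 0.407 log2 units, adjusted p = 0.0331). Atf3 is also an early gene of cell handling, and the summed handling-stress markers were 457 to 573 CPM in WT and 508 to 544 CPM in Il21r-/-, with Atf3 the single call among 10 tested, joined by Zfp36 as higher in Il21r-/- with day as a factor. Jdp2, a bZIP repressor related to it, had 5.46, 10.9 and 13.9 CPM in WT and 3.97, 5.22 and 5.06 CPM in Il21r-/- (1.01 ± 0.222, adjusted p = 0.0339). Bcl2l11 (BIM), a protein that drives apoptosis, had 47.1, 36.0 and 28.4 CPM in WT and 23.0, 24.5 and 20.4 CPM in Il21r-/- (0.69 ± 0.132, adjusted p = 0.0195). In Jdp2 and Bcl2l11 the lowest WT library lay above the highest Il21r-/- library, as it did in 8.33% of all genes tested. The like separation of Atf3 is not counted, because that gene was tested through its WT level.

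Among 19 tested effectors of mTORC1, Pdcd4 and Ulk1 passed, both higher in Il21r-/-, as did 4.52% of all genes tested. With day as a factor 4 were higher in Il21r-/-, which adds Rps6 and Lpin1, and 2 were higher in WT, Eif4g1 and Hif1a, against 13.6% and 9.33% of all genes. Pdcd4, a brake on the helicase eIF4A that S6 kinase marks for destruction, had 18.6, 9.8 and 8.01 CPM in WT and 44.9, 42.7 and 31.1 CPM in Il21r-/-. At 3.40-fold higher in Il21r-/- (-1.76 ± 0.169 log2 units, adjusted p = 0.00114), it differed more than any of the 39 members in size. It also passed on each single day by the likelihood ratio test, with adjusted p-values of 0.00897, 5.83e-08 and 1.38e-06 on days 7, 10 and 14. Ulk1, the kinase that starts autophagy and that mTORC1 inhibits, had 17.5, 15.4 and 17.0 CPM in WT and 23.8, 27.9 and 22.5 CPM in Il21r-/- (-0.57 ± 0.131, adjusted p = 0.0396).

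Regulators upstream of mTORC1 and ATF4 were read next. Of all 11005 genes tested, 2356 had an unadjusted p under 0.05 for genotype with the linear day term. Of 29 tested Rag, Ragulator, GATOR and other accessory genes 0 passed by edgeR's quasi-likelihood test, 2 had an unadjusted p under 0.05 and 2 passed with day as a factor, the GATOR2 subunit Wdr59 (-0.61 log2 units, adjusted p = 0.000655) and the arginine sensor Castor1 (-0.96, adjusted p = 0.0114), both higher in Il21r-/-, as were 13.6% of all genes. Of 12 eIF2alpha kinases, phosphatases and subunits 0 passed and 1 had an unadjusted p under 0.05. That gene list held 1 call with day as a factor, Eif2ak2 (PKR), higher in WT (0.49, adjusted p = 0.0114), as were 9.33% of all genes.

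The 20 cytosolic aminoacyl-tRNA synthetases, which charge tRNAs and are in large part ATF4 targets, were tested in full. None passed by edgeR's quasi-likelihood test (0 of 20). An unadjusted p under 0.05 was found in 2, and in 2356 of all 11005 genes tested. On the side of WT lay 17, against 5308 of the 11005. In 7 all WT libraries were above all Il21r-/- libraries, as they were in 8.33% of all genes tested. The 20 genes were read in the same 6 libraries, so these counts are not of separate results. With day as a factor 4 passed, all higher in WT, where 9.33% of all genes did, among them Yars at 75.6, 92.9 and 82.1 CPM in WT and 62.5, 69.7 and 68.7 CPM in Il21r-/- (0.32 log2 units, adjusted p = 0.00599). Their summed level was 3060 to 3300 CPM in WT and 2910 to 3100 CPM in Il21r-/-.

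Of 13 tested further transporters, Slc15a3 passed for genotype and day and Slc16a10 for day, where 5.92% of all genes passed for genotype and 4.43% for day. With day as a factor Slc43a2 passed as well, higher in Il21r-/- (-0.29 log2 units, adjusted p = 0.0329), so that 2 of 13 were, against 13.6% of all genes. Slc15a3, a lysosomal transporter of peptides and histidine, had 53.5, 37.9 and 30.2 CPM in WT and 72.6, 63.5 and 54.9 CPM in Il21r-/- (-0.68 ± 0.114 log2 units, adjusted p = 0.0117), and also fell over days (adjusted p = 0.0479). Slc16a10, an aromatic amino acid carrier, fell from 4.91 to 1.75 and 0.936 CPM in WT and from 6.28 to 2.59 and 1.24 CPM in Il21r-/- (-0.34 ± 0.042 log2 units per day, adjusted p = 0.00611).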

How the data were processed

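Total RNA of the sorted cells was made into TruSeq libraries and read as single ends. The authors used Rsubread for alignment to mm10 and featureCounts with its RefSeq gene set for counting, merged technical replicates and deposited raw whole-number counts per gene. Base calling used CASAVA 1.8.2, per the submitters' processing notes. Strand and multi-mapping settings were not given in the sources used here. The deposited table of all libraries equalled the 6 files of the single libraries. Symbols came from RefSeq (GRCm38.p6) for 25275 identifiers and from GENCODE for 18, and 1886 had none.

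Genes with an average log2 CPM of at least 0 were kept, and Y-linked genes (5), Xist and immunoglobulin variable genes (131) were left out, which left 11005. Counts were scaled by TMM in edgeR 4.0.16 (R 4.3.3, limma 3.58.1). Genotype and linear day were tested by the quasi-likelihood test (3 residual degrees of freedom), single days by the likelihood ratio test and the difference in slope by an interaction term (2). P-values were adjusted by the Benjamini-Hochberg method over every tested gene, with a threshold of 0.05. Standard errors come from the fitted model, and 95% intervals use its degrees of freedom. The common biological coefficient of variation was 13.1%. Total counts were 21353438 to 27435124 per library, and the method was tested on simulated data. With 3 libraries a genotype, leaving out 1 removes a day from that genotype.

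Libraries of the same day share the replicate number. The deviations of the WT and Il21r-/- library of a day from their genotype means correlated across genes at 0.64, 0.413 and 0.645 on days 7, 10 and 14, so that days were taken to pair the libraries and the fit with day as a factor is given beside results whose call or count of calls it changes. Changes over days common to both genotypes enter these correlations, so they cannot show a pairing of libraries beyond day itself. Alternatives were DESeq2 1.42.0 size factors and Wald test, other filters on low counts (any count, or at least 10 in every library), and each library left out. Values in all libraries are printed for members called by the quasi-likelihood test on all 6 libraries or not overlapping between genotypes. They are also printed for the most abundant member of each role except the mTOR kinase complexes, and for the called genes of the further lists, up to 5 a list. Some other members are printed in full too, and the rest are given by range or difference. Members, lists and tests were chosen with earlier results of these data known.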

Additional observations from a re-analysis of the deposited data

How the results depend on the processing

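Of the 9 calls of named members, no direction reversed in 96 recomputations. For calls on a single day the direction rests on the libraries of that day, which were never left out, so it could hardly reverse there. A change of test, size factors or filter kept all libraries and moved the log2 values little, so it tests direction little too. In 67 the call was kept and in 29 it was lost. With the replicate block (day as a factor, which pairs the libraries of a day) 8 members passed for genotype in place of 3, adding Ddit3, Atf5, Trib3, Slc1a4 and Slc43a1. That fit, chosen after seeing the data as a comparison of its own, gave 5 members without day 7, 4 without day 10 and 3 without day 14, among 2137, 1611 and 1004 genes in all, against 2519 with every day, and 9 with DESeq2 size factors, the ninth being Psat1 as higher in WT (adjusted p = 0.0434). With each library left out in turn, 0 to 6 members passed for genotype over 3 days (among 132 to 2165 genes in all, against 651 with every library), and 0 to 10 for a slope (among 0 to 2177 genes, against 488). For a single day only the 4 libraries of the other days were left out in turn. On day 7 this gave 0 to 1 members, among 104 to 220 genes in all against 118. On day 10 it gave 0 to 2, among 267 to 418 genes against 341, and on day 14 1 to 2, among 341 to 704 genes against 361. Over 3 days, 2 members passed when all genes with any count were tested, without Ddit4, and 4 by the likelihood ratio test, with Ddit3, among 991 and 1193 genes. On day 7, 0 members passed when all genes with any count or only genes with at least 10 counts in every library were tested, where 112 and 86 genes did against 118. On day 10, 4 passed with the linear day term kept in the model and 3 when the dispersion was estimated with day as a factor (replicate block), among 722 and 822 genes against 341. On day 14, 3 passed with that dispersion and 0 with all genes with any count, among 1055 and 350 genes against 361. For a slope over days, 5 passed with all genes with any count, 5 by the DESeq2 Wald test and 6 by the likelihood ratio test, among 869, 870 and 1186 genes against 488, each count with 1 member falling, Slc1a5. The causes were not tested. With 3 libraries a genotype an exact permutation test cannot reach the threshold. Which size of difference could be detected in the members with few counts, among them Pycr1, Slc7a11, Chac1, Gpt2 and Slc43a1, was not tested.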
